A study of Mus musculus with 12 samples.

Results

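Ribosome production begins in the nucleolus, and 6 genes that act there were followed in the mouse mammary cancer line 6DT1, which came from an MMTV-Myc tumor and is syngeneic to FVB/NJ mice, after CRISPR editing of Resf1. The 6 genes are Polr1b, Tcof1, Nolc1, Mybbp1a, Nop2 and Nop16. They were chosen by symbol for their known role, but with earlier results of these data known. They are 6 of the 982 genes in the deposited table. RNA sequencing covered 12 libraries in 4 groups of 3: a line of wild type genotype carrying the control guide (sgControl, labelled sgScranble control), and lines sg1, sg2 and sg3, which carry different guides against Resf1 and are labelled Resf1 KO. The labels give all groups the same serum-containing medium with puromycin. Their treatment protocol describes shRNA knockdown in human cells and conflicts with the titles of these samples, while the methods of the study have the edited cells sorted by GFP, so the growth conditions in the labels may not hold for them.

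Each edited line was grown from single cells, so a guide cannot be told apart from the clone that carries it. The 3 libraries of a group came from dishes of 1 line seeded in triplicate, and the p-values below measure only the spread between such dishes. Resf1 itself was not analysed here, so the labels were not checked on the targeted gene. Of the 8 epithelial markers listed, Krt8, Krt18 and Krt19 were in the table and were above 0 in all 12 libraries, and the other 5 were not analysed here.

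In the nucleolus, RNA polymerase I copies the ribosomal DNA into a long precursor RNA, which is then modified, cut and assembled with ribosomal proteins. Polr1b encodes the second-largest subunit of RNA polymerase I, and Tcof1 encodes treacle, a scaffold that supports transcription of the ribosomal DNA. Nolc1 (also called Nopp140) is a phosphoprotein related to treacle that chaperones small nucleolar ribonucleoproteins, and Mybbp1a is a nucleolar protein linked to ribosomal RNA synthesis and processing. Nop2 is a cytosine methyltransferase of ribosomal RNA needed for the large subunit, and Nop16 is an assembly factor of the large subunit. Genes of this kind are well known targets of the transcription factor MYC, which binds E-box letters in their promoters, and the tumor from which 6DT1 derives was driven by a Myc transgene.

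Promoter windows of RefSeq (assembly GRCm38.p6, 250 bases before to 50 bases after the start of the gene) were found for 5 of the 6 genes, and not for Tcof1. They were searched on both strands for the E-box letters CACGTG and for the variant CACGCG, which reads CGCGTG on the other strand. The 4 windows that hold either are shown because the rule for these genes rests on MYC, with the matching letters in capitals and each window written 5′ to 3′ on the strand of its gene.
Nop2, chr6:125131633-125131932, plus strand: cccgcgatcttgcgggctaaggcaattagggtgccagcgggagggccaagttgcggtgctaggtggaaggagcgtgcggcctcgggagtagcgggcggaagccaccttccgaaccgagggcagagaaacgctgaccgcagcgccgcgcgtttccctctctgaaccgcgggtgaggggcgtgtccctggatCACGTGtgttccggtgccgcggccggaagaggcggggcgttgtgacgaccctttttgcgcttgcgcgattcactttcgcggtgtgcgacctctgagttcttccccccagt
Nop16, chr13:54590025-54590324, minus strand: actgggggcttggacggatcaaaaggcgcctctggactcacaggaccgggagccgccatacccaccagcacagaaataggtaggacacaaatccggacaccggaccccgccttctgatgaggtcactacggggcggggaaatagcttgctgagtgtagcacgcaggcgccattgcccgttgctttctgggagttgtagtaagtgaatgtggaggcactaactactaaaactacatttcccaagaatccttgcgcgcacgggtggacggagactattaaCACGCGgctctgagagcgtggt
Nolc1, chr19:46075597-46075896, plus strand: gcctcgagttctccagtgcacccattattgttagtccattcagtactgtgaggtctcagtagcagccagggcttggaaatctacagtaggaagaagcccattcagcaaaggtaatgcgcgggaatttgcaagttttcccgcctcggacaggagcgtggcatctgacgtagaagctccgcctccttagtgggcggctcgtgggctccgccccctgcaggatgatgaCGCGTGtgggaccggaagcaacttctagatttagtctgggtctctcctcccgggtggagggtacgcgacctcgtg
Mybbp1a, chr11:72441077-72441376, plus strand: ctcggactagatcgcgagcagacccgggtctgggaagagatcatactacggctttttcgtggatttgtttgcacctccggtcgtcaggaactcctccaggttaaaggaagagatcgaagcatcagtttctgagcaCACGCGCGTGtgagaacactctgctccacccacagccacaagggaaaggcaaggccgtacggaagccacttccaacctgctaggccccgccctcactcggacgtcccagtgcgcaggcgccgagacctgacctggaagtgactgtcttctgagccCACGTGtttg
Counted from the start of the gene, the CACGTG match of Nop2 began at position -60 and that of Mybbp1a at position +41. Mybbp1a also held CACGCG and CGCGTG matches at -115 and -111, which overlap each other. Nolc1 held CGCGTG at -25 and Nop16 held CACGCG at +29, whereas the window of Polr1b (chr2:129100746-129101045, plus strand) held neither. CACGTG was in 7.15% of all 32851 promoter windows and in 12.5% of the 954 windows of genes in the table, and CACGCG was in 9.27% and 17.3% of them. These are matches of letters and say nothing of binding.

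The deposited values are called normalized counts here, because most low values, though not all, fell on steps that a count divided by 1 size factor per library would give. Their sums over the table were 2069298 to 2713951 per library, which covers part of a library and is not its depth, so the depth is unknown. A single feature took 16.1% to 32.9% of these sums. The table appears to have been limited to genes that differ between knockout and control libraries, by a filter that is not stated. All 982 had an unadjusted limma p-value under 0.05 for the mean of the 3 guides, and the largest was 0.0412. The contrasts with sgControl below are therefore a description, read against the share of the table that was called. Differences among the guides are orthogonal to that mean, but this does not free their p-values of the filter. A choice by small p-values can also favour genes with little spread between dishes.

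The levels of the 6 genes were compared per kilobase of their longest transcript in the sgControl line. Mybbp1a was the highest at 3112 ± 184 normalized counts per kb (SD, n = 3), followed by Nolc1 at 1400 ± 84.3 and Tcof1 at 1093 ± 54.9. Nop2 was at 911 ± 105, Nop16 at 443 ± 21.9 and Polr1b at 399 ± 29.8. Of the neighbours in this order, only Nop16 and Polr1b had sgControl libraries that overlapped, at 420 to 464 and 366 to 424 per kb. All 6 genes lay above the median level of the table, which was 191 per kb.

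In sg1, all 6 genes were lower than in sgControl, with a median log2 difference of -0.40 and a range of -0.50 to -0.35, and all 6 passed the test (limma, Benjamini-Hochberg adjusted p at most 0.05). Over the whole table, 39.1% of genes were called lower in sg1. The median of the 6 genes fell by 24.2%, while the median log2 difference of all 982 genes was 0.20, with 384 genes called lower and 492 higher. Under 3 other scalings that table median moved to between 0.05 and 0.07, with 410 to 417 lower and 409 to 419 higher, and the median of the 6 genes to between -0.55 and -0.53, with all 6 called. After removal of a trend with transcript length and GC content all 6 were again called, beside 353 of 972 genes lower. Their median was then only -0.23, with Nolc1 at -0.19, Mybbp1a at -0.19, Tcof1 at -0.25 and Polr1b at -0.32. In each of the 6 genes every sg1 library lay below every sgControl library, which held for 39.7% of the table.

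Among the genes of ribosomal DNA transcription, Polr1b changed most. Polr1b had 1631, 1695 and 1464 normalized counts in sgControl replicates 1, 2 and 3, against 1078, 1237 and 1063 in sg1, 1406, 1439 and 1283 in sg2, and 1372, 1559 and 1261 in sg3. Its sg1 libraries were the 3 lowest of the 12. The log2 difference of sg1 from sgControl was -0.50 ± 0.08 (SE; limma adjusted p = 2.63e-05). Tcof1 had 5137, 5193 and 4731 in sgControl, 3650, 4001 and 3774 in sg1, 4530, 4721 and 4356 in sg2, and 4327, 4781 and 4470 in sg3. Its sg1 libraries stood apart from all 9 others, and sg1 differed from sgControl by -0.40 ± 0.06 (limma adjusted p = 4.67e-06).

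Nolc1 and Mybbp1a, the highest of the 6 per kilobase, were also lower in sg1. Nolc1 had 5090, 5392 and 4779 normalized counts in sgControl, 3648, 4144 and 3731 in sg1, 4731, 4558 and 4615 in sg2, and 4510, 5040 and 4895 in sg3. The sg1 libraries were again the lowest, while the sg3 libraries overlapped sgControl, and sg1 differed from sgControl by -0.41 ± 0.06 (limma adjusted p = 8.32e-06). Mybbp1a had 14149, 14468 and 12916 in sgControl, 10836, 11595 and 10230 in sg1, 12625, 13204 and 12291 in sg2, and 11911, 13008 and 11962 in sg3. Its sg1 difference was -0.35 ± 0.06 (limma adjusted p = 4.26e-05). In the annotation Mybbp1a overlaps the opposite-strand gene Spns2 by 131 bases, and whether the counting used strand is not stated.

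The large subunit factors Nop2 and Nop16 were both lower in sg1. Nop2 had 2375, 2635 and 2092 normalized counts in sgControl, 1743, 1968 and 1845 in sg1, 2117, 2242 and 1983 in sg2, and 2068, 2225 and 1992 in sg3. Its sgControl libraries had the largest spread of the 6 genes relative to their mean, and sg1 lay below all of them, by -0.35 ± 0.08 (limma adjusted p = 0.000419). Nop16 had 814.5, 782.7 and 737.9 in sgControl, 574.2, 648.8 and 548.0 in sg1, 686.4, 689.1 and 683.2 in sg2, and 633.2, 721.9 and 666.1 in sg3. It was the one gene of the 6 with all 9 knockout libraries below the sgControl libraries, which held for 16.1% of the table, and its sg1 difference was -0.40 ± 0.07 (limma adjusted p = 8.53e-05). With the length and GC trend removed, the sg1 differences were -0.21 for Nop2 and -0.48 for Nop16.

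**Figure D1:**
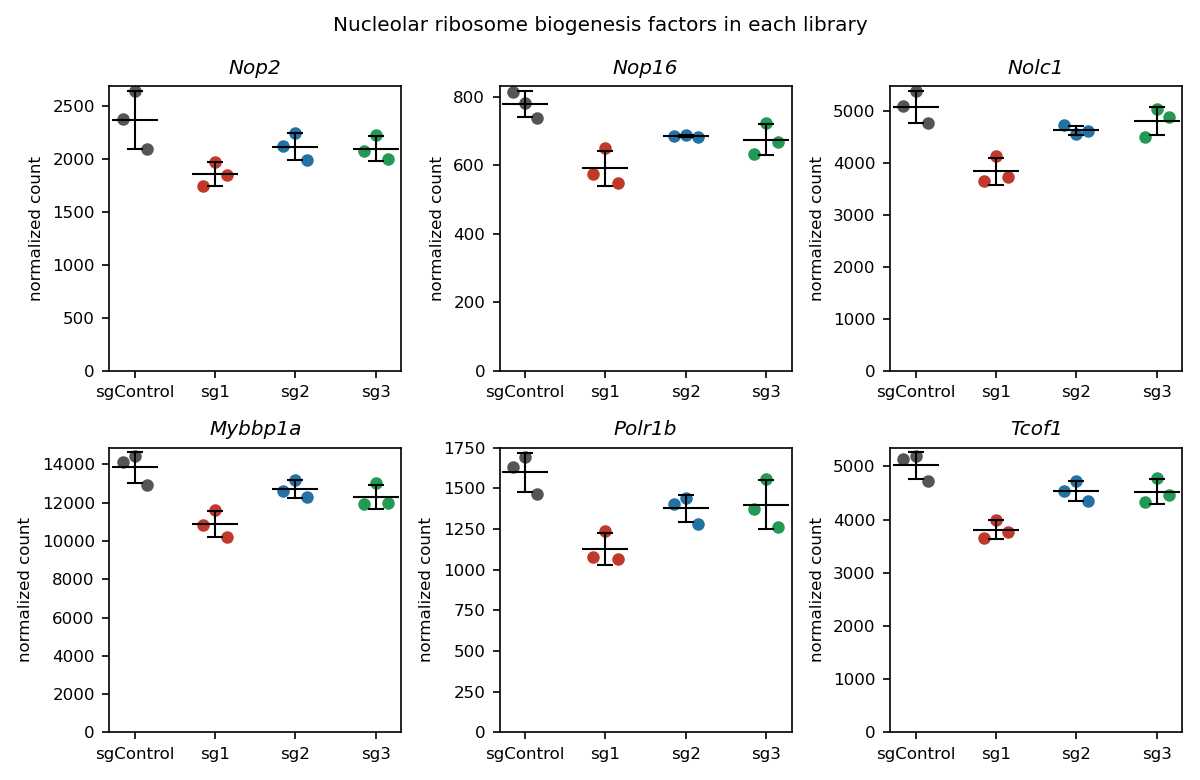
Normalized counts of the 6 genes in each library, by group (sgControl, sg1, sg2, sg3). Points are the 3 libraries of a group, the black line is their mean and the bars are the SD. The 3 sg1 libraries lie below the 3 sgControl libraries for each gene, as for Polr1b at 1063 to 1237 against 1464 to 1695, while sg2 and sg3 lie between them or overlap sgControl, except Nop16, where the sg3 libraries (633.2 to 721.9) overlap those of sg1 (548.0 to 648.8).

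In sg2 and sg3 the differences from sgControl were smaller and the calls depended on the processing. In sg2 the median log2 difference was -0.15, with a range of -0.21 to -0.12, and 3 of the 6 genes were called lower (Nop16, Polr1b and Tcof1), beside 29.4% of the table. Polr1b differed by -0.21 (limma adjusted p = 0.0351), Nop16 by -0.18 (0.044) and Tcof1 by -0.15 (0.0324). The values of Nop2, Nolc1 and Mybbp1a were -0.16, -0.13 and -0.12, with limma adjusted p = 0.0789, 0.0626 and 0.0818. The sg2 libraries lay wholly below sgControl in 4 of the 6 genes, beside 34.9% of the table, with overlap in Nop2 and Mybbp1a. Deviations from group means correlated by only 0.122 to 0.164 between same-numbered sgControl and sg2 libraries, and what the numbers mark is not stated. With a replicate block over all 12 libraries all 6 genes were called lower in sg2, the highest limma adjusted p being 0.0228. The calls over the table rose from 289 to 338 lower of 982. All 6 were also called under each of 3 other scalings, which moved the split of the table from 289 lower and 297 higher to as far as 385 lower and 238 higher. After a trend with transcript length and GC content was removed, 2 were called (Nop16 at -0.21 and Polr1b at -0.17), beside 263 of 972 genes lower. Of the 6, 3 then lay below 0, and the median was -0.02. None were called without sgControl replicate 1, without sgControl replicate 2, or without sg2 replicate 1 or 3, where 203 to 255 genes of the table were lower. Without sgControl replicate 3, 6 were called, beside 277 lower. Without sgControl replicate 2 the sg2 value of Nop2 was -0.08.

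In sg3 the median log2 difference was -0.17, with a range of -0.21 to -0.08, and 4 genes were called lower (Nop16, Mybbp1a, Polr1b and Tcof1), beside 33.4% of the table. Nop16 differed by -0.21 (limma adjusted p = 0.0226), Mybbp1a by -0.17 (0.0214) and Tcof1 by -0.15 (0.0284). Polr1b differed by -0.20 and lay at the threshold (limma adjusted p = 0.05). Nop2 and Nolc1 were not called, at -0.17 and -0.08 (limma adjusted p = 0.0606 and 0.248). The sg3 libraries lay wholly below sgControl in 1 gene, Nop16, beside 33.3% of the table. With the length and GC trend removed, Nop16 alone was called (-0.20, limma adjusted p = 0.0127), beside 288 of 972 genes lower. Of the 6, 4 then lay below 0, and the median was -0.04. None were called without sgControl replicate 1 or 2, or without sg3 replicate 1 or 3, where 232 to 264 genes of the table were lower. Without sgControl replicate 3, 5 were called, beside 302 lower. Without sgControl replicate 2 the sg3 values of Nop2 and Nolc1 were -0.09 and -0.04.

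**Figure D2:**
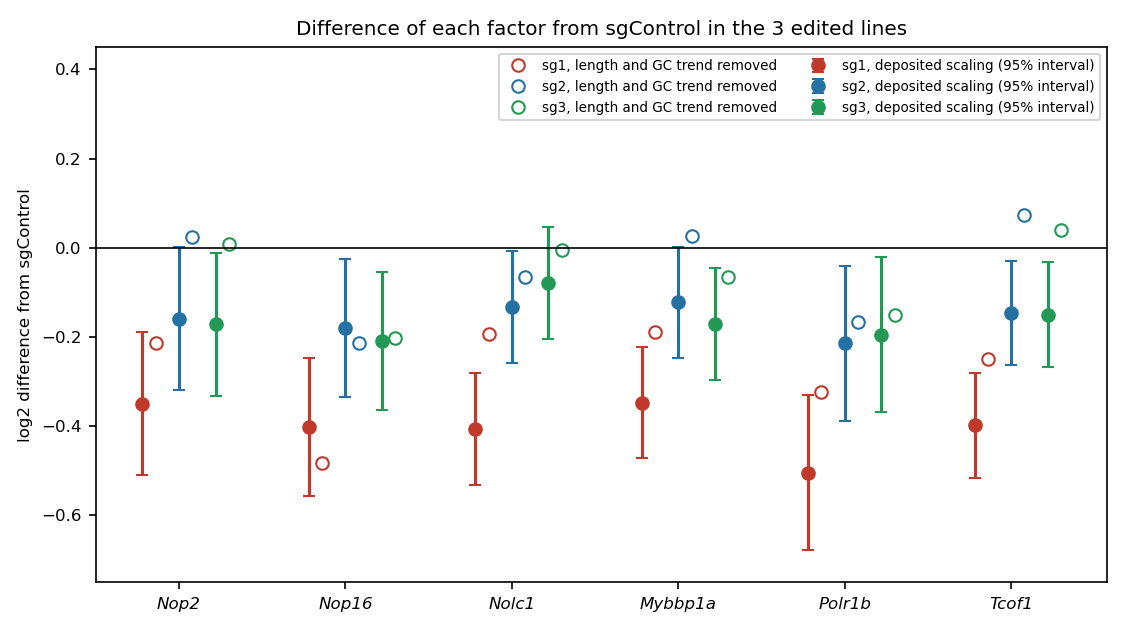
Log2 differences from sgControl of the 6 genes with each guide. Filled points are the deposited scaling with the 95% interval, and open points are after removal of the trend with transcript length and GC content. The sg1 values stay below 0 under both, from -0.50 to -0.35 and from -0.48 to -0.19, while the medians of sg2 and sg3 move from -0.15 to -0.02 and from -0.17 to -0.04.

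The test among the guides asks whether the 3 edited lines differ. Of the 6 genes, 5 differed among sg1, sg2 and sg3, beside 75.3% of the table, and Nop2 did not pass (limma adjusted p = 0.0516). Nop2 passed under each of 3 other scalings and with the length and GC trend removed (limma adjusted p = 0.00363), so that all 6 then differed, beside 778 to 782 of 982 genes under the scalings and 798 of 972 with the trend removed. Without sg1 replicate 3, 3 of the 6 passed, beside 686 of 982 genes. Against the mean of sg2 and sg3, sg1 was lower in all 6 genes, by a median of -0.23 and a range of -0.30 to -0.18, and all 6 were called, beside 26.2% of the table. Nolc1 differed by -0.30 ± 0.05 (SE; limma adjusted p = 5.66e-05) and Polr1b by -0.30 ± 0.07 (0.00116). Tcof1 differed by -0.25 (limma adjusted p = 0.000163), Nop16 by -0.21 (0.00775), Mybbp1a by -0.20 (0.00213) and Nop2 by -0.18 (0.0183). In 5 of the 6 genes, all but Nop16, every sg1 library lay below every sg2 and sg3 library, which held for 18.8% of the table. With the length and GC trend removed all 6 were still called, with a median of -0.20, beside 301 of 972 genes lower. Their order changed: Nolc1 and Polr1b were then the smallest, at -0.16 and -0.17, and Tcof1 and Nop16 the largest, at -0.31 and -0.27. Without sg1 replicate 3, 4 were called, and without sg1 replicate 1, 5, beside 226 and 238 genes of the table lower. Without the intensity trend and robust estimates of the fit 5 were called, and in a test against a 1.2-fold change 0. Beside these, 245 and 91 genes were lower. Other scalings moved the table from 257 lower and 441 higher to as far as 385 lower and 367 higher, its median from 0.10 to as low as -0.04, and the median of the 6 genes to between -0.37 and -0.34.

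Between sg3 and sg2, by contrast, none of the 6 genes was called by limma, and 0 had an unadjusted p under 0.05, while 30.5% of the table was called. The log2 differences ran from -0.05 for Mybbp1a to 0.05 for Nolc1, and the 95% intervals of the 6 genes lay between -0.18 and 0.19. These intervals do not show that sg2 and sg3 are alike.

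The 6 genes also moved together from dish to dish. In 9 of the 12 libraries all 6 lay on the same side of their group means, on the deposited scaling. No share of other gene sets was computed beside this count, and 106 of 976 other genes lay close to the profile of the 6, as given below. All 6 genes had a GC content above the table median of 50.7%. The part of a length and GC trend in this movement was not tested. On the log2 scale, the mean of the 6 genes deviated from its group mean by 0.08 in sgControl replicate 2 and by -0.11 in replicate 3, which was the lowest sgControl library for all 6. Replicate 2 was the highest library of sg1 and of sg3 for all 6, with deviations of 0.11 and 0.10. The median deviation of all 982 genes stayed within -0.04 and 0.04, but deviations in opposite directions cancel in such a median. The median of 12 other nucleolar genes, relative to the sgControl mean, was also lowest of the sgControl libraries in replicate 3, at -0.04. It was highest of those of sg1 and of sg3 in replicate 2, at -0.33 and -0.07. Relative to the sgControl mean, the mean of the 6 genes was -0.45, -0.29 and -0.46 in the sg1 libraries, -0.15, -0.12 and -0.21 in those of sg2, and -0.22, -0.07 and -0.21 in those of sg3. The sg1 libraries thus lay apart from all others, whereas sgControl replicate 3, at -0.11, lay between the highest library of sg3 and that of sg2.

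**Figure D3:**
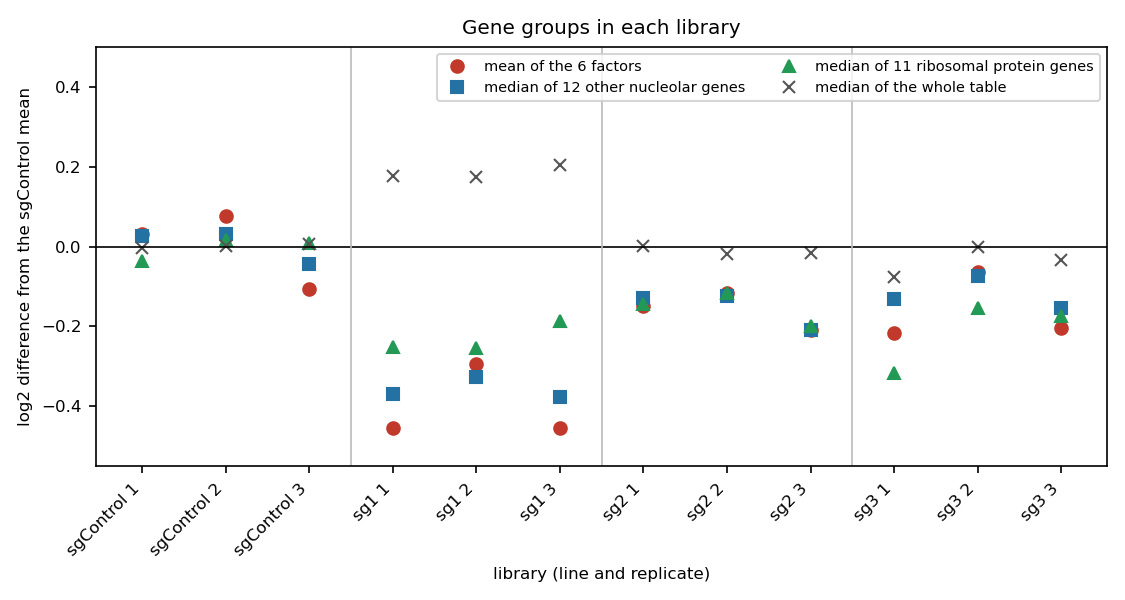
Log2 difference from the sgControl mean in each of the 12 libraries for the mean of the 6 genes, the median of 12 other nucleolar genes, the median of 11 ribosomal protein genes and the median of all 982 genes. The 6 genes run from -0.46 to -0.29 in sg1 and from -0.22 to -0.07 in sg2 and sg3.

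A list of 171 other nucleolar ribosome biogenesis genes had 12 members in the table. All 12 were called lower in sg1, beside 39.1% of the table, with a median log2 difference of -0.36 and a range of -0.59 to -0.25, and none was called higher. In sg2 4 were called lower (median -0.14) and in sg3 3 (median -0.12), where 29.4% and 33.4% of the table were called lower. In this fit, without a replicate block, these counts are near the share of the table. The list was not counted with the block. In sg1 against sg2 and sg3 9 were called lower (median -0.26), beside 26.2% of the table. Rrp1b, which takes part in processing of ribosomal RNA, had the largest sg1 difference. Its mean was 2021 ± 82.8 normalized counts (SD, n = 3) with the control guide, 1339 ± 47.6 with sg1, 1848 ± 84.8 with sg2 and 1904 ± 71.7 with sg3, and sg1 differed from the other guides with limma adjusted p = 6.42e-08. Naf1, an assembly factor of box H/ACA ribonucleoproteins, averaged 1323 ± 29.4, 937.8 ± 37.2, 1186 ± 39.3 and 1236 ± 56.2 in the same order. Pdcd11, a small subunit processing factor, averaged 2675 ± 236, 1965 ± 136, 2343 ± 78.5 and 2360 ± 173. The log2 differences of sg1 from sgControl were -0.36 for the helicase Dhx33, -0.31 for Pelp1, -0.30 for Utp15, -0.38 for Sdad1 and -0.36 for Wdr75. Apart from Polr1b, which was not on that list, none of 43 listed genes of RNA polymerases I and III was in the table, so these 43 were not analysed here.

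**Figure D4:**
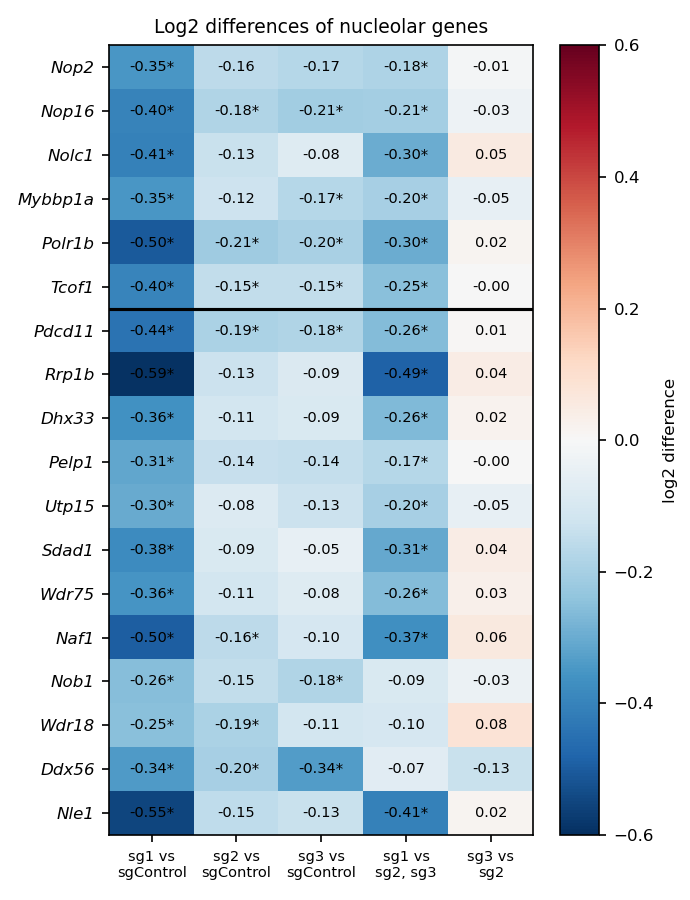
Log2 differences of the 6 genes (above the line) and the 12 other nucleolar genes (below it). The columns are sg1, sg2 and sg3 against sgControl, sg1 against sg2 and sg3, and sg3 against sg2. The colour gives the difference and an asterisk marks a limma adjusted p of at most 0.05. The column of sg1 against sgControl is marked for all 18 genes, while those of sg2 and sg3 against sgControl are paler and marked in part.

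The cytosolic ribosomal protein genes, whose products are assembled with ribosomal RNA, had negative median differences with each guide. Of 11 in the table, 10 were called lower in sg1, 8 in sg2 and 9 in sg3, beside 39.1%, 29.4% and 33.4% of a table already limited to genes that differ from the controls, and 1, 3 and 2 did not pass. Their median log2 differences were -0.22, -0.16 and -0.21. In sg1 against sg2 and sg3, 2 were called lower and 1 higher, with a median of -0.02. Rpph1, the RNA component of RNase P and the 1 gene in the table of a list of 15 noncoding host and processing RNAs, averaged 129951 ± 3270 normalized counts with the control guide (SD, n = 3), 99909 ± 12600 with sg1, 115747 ± 14900 with sg2 and 99154 ± 16200 with sg3.

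Myc, the regulator of these genes named in the background, was called lower in sg1. It had 17718, 15024 and 18849 normalized counts in sgControl and 9470, 9364 and 9189 in sg1, a log2 difference of -0.87 (limma adjusted p = 4.38e-08). In sg2 it had 16655, 14363 and 14825, and in sg3 15406, 18041 and 15030, with log2 differences of -0.17 and -0.09 (limma adjusted p = 0.0838 and 0.343). Sg1 differed from sg2 and sg3 by -0.75 (limma adjusted p = 3.79e-08). Transcripts of the Myc transgene and of the endogenous gene cannot be told apart here. Marker levels also differed between the lines, given here as means with no test. Cd68, the 1 of 4 listed immune markers in the table, averaged 134.8 with the control guide, 304.9 with sg1, 160.9 with sg2 and 147.9 with sg3, with a range of 102.5 to 326.8 over the 12 libraries. Krt8 averaged 6215, 13330, 6019 and 5354, Krt18 5784, 10040, 5709 and 4606, and Krt19 494.9, 622.3, 401.8 and 182.2 in the same order. The part of Myc and of these markers in the differences of the 6 genes was not tested.

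The genes most like the 6 in pattern were found by the root mean square difference, over the 12 libraries, between a gene and the mean profile of the 6 on the log2 scale. The closest were C1qbp (0.0335), Impdh2-ps (0.0360), Pfas (0.0374), Gemin5 (0.0444) and Carm1 (0.0460), where the median of the table was 0.522 and 106 of 976 genes lay within 0.1. C1qbp is a multifunctional protein found mainly in mitochondria, Pfas is an enzyme of purine synthesis, Gemin5 binds small nuclear RNAs and Carm1 methylates arginine. Impdh2-ps is a pseudogene that can share reads with Impdh2, so its value is uncertain. Their log2 differences from sgControl in sg1 were -0.40 for C1qbp, -0.36 for Pfas, -0.40 for Gemin5 and -0.36 for Carm1, and in sg2 they were -0.18, -0.15, -0.16 and -0.15. Among the 6 genes themselves, Tcof1 lay closest to the mean profile (0.0239) and Polr1b farthest from it (0.0737).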

How the data were processed

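RNA from 12 dishes of 6DT1 lines was sequenced as stranded total RNA. The deposited values are a normalized signal per gene, which the authors made with Partek, STAR 2.7.8a and DESeq2, per the labels' processing notes. In the study's methods the authors aligned RNA-seq reads with STAR within Partek Flow, scaled them by median ratio and used DESeq2 for the comparisons, but the genome named there is human. The deposited values were taken as estimated counts divided by 1 size factor per library, which is a reading of the values and not a statement of the authors: below 100 reads, 79.8% to 85.4% of values per library lay within 0.05 reads of a whole number once divided by a common step. The mouse build, annotation and counting method are not given in the sources used here. A size factor moves all genes of a library together, and 972 of the 982 genes matched a symbol in GENCODE tables.

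All 12 libraries entered 1 limma fit (3.58.1, R 4.3.3) on log2(value + 1), with an intensity trend and robust estimates. Tests were two-sided, with Benjamini-Hochberg adjustment over 982 genes and a threshold of 0.05, and fold changes on this scale understate those of low genes. Scripts were tested on simulated data. The 6 members, the lists and the tests were chosen with earlier results of these data known. Named genes were the 6, Myc, the 8 of the other nucleolar list with the highest mean, and the 5 closest in pattern; markers, Rpph1 and Spns2 were named in addition. Deviations from group means correlated between same-numbered libraries by 0.199 to 0.238 for sgControl with sg1 and by 0.122 to 0.164 with sg2, all 3 pairs over 0.1, but by -0.0786 to -0.00383 with sg3. What the numbers mark is not stated. Alternatives were 3 other scalings, other pseudocounts, a filter, no trend, chromosome 15 left out, a replicate block, removal of a length and GC trend, a 1.2-fold test, only the groups compared, and leaving out each library. Protein sequences were not used here.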

Additional observations from a re-analysis of the deposited data

Results flagged for a closer look

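The following genes were picked out because the 3 guides, which target the same gene, differed in a test of the difference itself (limma F test of equal levels in sg1, sg2 and sg3). The adjusted p-values were 0.000179 for Nolc1, 0.000575 for Tcof1, 0.00378 for Polr1b, 0.0059 for Mybbp1a and 0.0226 for Nop16. In each of these genes sg1 was the lowest line by its mean. Of all genes tested, 75.3% differed among the guides, so a difference among the guides is common here. The guide and the clone cannot be told apart.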

How the results depend on the processing

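The calls in sg1 kept all 6 genes under every alternative but a test against a 1.2-fold change. That test called 3, beside 157 of 982 genes lower. All 6 were called in sg1 with any library left out, beside 350 to 391 genes lower. In sg2, where 3 genes were called, 6 were called under each of the 3 other scalings, beside 329 to 385 genes lower. The replicate block also gave 6, beside 338 lower. Without the intensity trend and robust estimates 0 were called, as in the 1.2-fold test, beside 259 and 112 lower. Leaving out a library gave 0 to 6, beside 203 to 303 lower. In sg3 4 were called. Without the trend and robust estimates 2 were called, and 2 with only the groups compared, beside 297 and 295 genes lower. With the length and GC trend removed 1 was called, beside 288 of 972 lower, and the 1.2-fold test called 0, beside 109 lower. That removal together with the replicate block, an alternative chosen after seeing the data, called 2, beside 305 of 972 lower. Leaving out a library gave 0 to 5, beside 232 to 368 lower. Same-numbered sgControl and sg3 libraries did not correlate above 0.1, and the replicate block gave 5 calls there, beside 369 lower. Among the guides, leaving out a library gave 3 to 6 calls of the 6 where 5 were called, with the lowest without sg1 replicate 3. All 6 were called among the guides with the 3 other scalings, the length and GC trend removed, only the groups compared, or the replicate block (Nop2 adjusted p = 0.00316), although not every same-numbered pair of the edited lines correlated above 0.1. Sg1 against sg2 and sg3 gave 0 in the 1.2-fold test, beside 91 genes lower, and 5 without the trend and robust estimates, beside 245 lower. It gave 4 to 6 with a library left out, beside 226 to 266 lower, with 4 without sg1 replicate 3 and 5 without sg1 replicate 1. Sg3 against sg2 gave 0 under every alternative run, where 169 to 372 genes of the table were called. With the length and GC trend removed, with and without the replicate block, Tcof1 changed sign, to 0.0743 in sg2 and 0.0403 in sg3. Of the genes not called there, Nop2 also turned positive, at 0.02 in sg2 and 0.0075 in sg3, as did Mybbp1a in sg2, at 0.03, and the median of the 6 genes in sg1 moved from -0.40 to -0.23. The cause of these changes was not tested. The test among the guides was not run in the 1.2-fold form. The depth of the libraries is unknown, so what it limits could not be computed.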

Other observations

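Relative to the mean of the other 5 genes in the same library, which no scaling by library can change, Polr1b was lower in sg1 by -0.12 on the log2 scale, at -1.35 to -1.28 against -1.21 to -1.18 in sgControl, and in sg2 by -0.07, at -1.32 to -1.23. Mybbp1a was higher by 0.06 in sg1, at 2.57 to 2.67 against 2.53 to 2.56, and by 0.04 in sg2, at 2.57 to 2.61. Both overlapped sgControl in sg3. Nolc1 was higher by 0.10 in sg3, at 0.87 to 0.99 against 0.78 to 0.83, whereas it overlapped sgControl in sg1 and sg2. The values of Nop2, Nop16 and Tcof1 overlapped sgControl in each edited line. A trend with transcript length and GC content was not removed from these ratios and can change them. With it removed, the sg1 differences from sgControl were -0.48 for Nop16 and -0.32 for Polr1b, and -0.25 to -0.19 for the other genes. Nop16 then departed most. The ratios describe 3 libraries per line and were not tested.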
